A study of Mus musculus with 2 samples.

Results

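The miR-200 family and the Mir183 cluster are sets of microRNA (miRNA) genes best known from epithelia and from sensory organs. They were followed here in the hippocampus of juvenile mice. The genes were taken by their GENCODE M21 names from 2 deposited count tables. All 8 were found among 2202 miRNA genes, with Mir200a, Mir200b, Mir200c, Mir141 and Mir429 as the miR-200 family and Mir182, Mir183 and Mir96 as the Mir183 cluster. The 2 libraries came from male B6CASTF1/J mice aged 25 days, from tissue labelled layer of hippocampus. They form 1 group, and the labels name no treatment, transgene or altered genotype. They are called biological replicates and have their own biosample entries but share a donor entry, so the spread between them may be technical. The assay was microRNA sequencing of RNA shorter than 30 bases, drawn from total RNA. The design allows the counts of the members to be set against each other and against other miRNA genes, and the libraries to be compared. How evenly different sequences enter a library was not measured, so ratios between genes are ratios of counts.

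A miRNA is cut from a hairpin in a longer primary transcript, and hairpins that lie side by side are often cut from 1 transcript. The mature strand guides a protein complex to messenger RNAs that pair with its seed, bases 2 to 8, and lowers their output. The miR-200 family holds cells in an epithelial state by repressing the ZEB transcription factors, and in the mouse olfactory system it takes part in the differentiation of neurons. The Mir183 cluster is strongly expressed in photoreceptors, hair cells and other sensory cells, and changes in the seed of Mir96 cause hearing loss in mice and humans. Neither family counts among the typical miRNAs of hippocampal neurons.

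The mature strands usually found as the guide are shown first because their seeds decide which members can share targets. All 8 members matched the RefSeq sequences of GRCm38.p6, and capitals mark the seed. In the miR-200 family there are 2 seeds, AAUACUG and AACACUG.
mmu-miR-200b-3p: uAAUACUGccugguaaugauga
mmu-miR-200c-3p: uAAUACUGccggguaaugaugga
mmu-miR-429-3p: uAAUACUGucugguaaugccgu
mmu-miR-200a-3p: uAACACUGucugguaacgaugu
mmu-miR-141-3p: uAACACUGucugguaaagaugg
The Mir183 cluster has a seed for each member, and they resemble each other around the letters UGGCA.
mmu-miR-183-5p: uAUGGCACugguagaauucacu
mmu-miR-182-5p: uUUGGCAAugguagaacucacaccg
mmu-miR-96-5p: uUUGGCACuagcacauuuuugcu

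Positions are counted from 1 at the 5′ end of the strand named first. From miR-200b-3p to miR-200a-3p the seed differed by the single change U4C. The guides of Mir200a and Mir141 had the same seed and differed by C17A and U22G, and those of Mir200b and Mir200c differed by U11G and A22G over 22 positions. From miR-96-5p the seed of miR-182-5p differed by C8A and that of miR-183-5p by U2A. Among 1738 mature mouse miRNAs in the RefSeq table, AAUACUG was the seed of 3 and AACACUG of 2, all of them members. The seeds of miR-183-5p and miR-182-5p had 1 owner each. The seed of miR-96-5p was also that of miR-1271-5p, whose gene is Gm24195 in the tables.

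The members lie in 3 clusters, all on the minus strand of mm10. On chromosome 4, Mir200b (ENSMUSG00000065549.3) runs from 156055681 to 156055750, Mir200a (ENSMUSG00000065400.1) from 156054896 to 156054985 and Mir429 (ENSMUSG00000065427.1) from 156053905 to 156053987. All of them lie in an intron of Ttll10, a member of the tubulin tyrosine ligase-like family. Mir200b and Mir200a also lie in an intron of the noncoding gene Gm13648 and Mir429 in an exon of it. On chromosome 6, Mir200c (ENSMUSG00000065462.3) runs from 124718322 to 124718390 and Mir141 (ENSMUSG00000065474.1) from 124717914 to 124717985. Both are in an intron of the noncoding gene Gm15884, between the protein-coding genes Phb2 and Ptpn6, and Mir141 overlaps an exon of Gm29008 on the same strand. The third cluster is also on chromosome 6, with Mir183 (ENSMUSG00000065619.2) from 30169668 to 30169737, Mir96 (ENSMUSG00000065586.1) from 30169446 to 30169551 and Mir182 (ENSMUSG00000076361.1) from 30165918 to 30165992. No annotated gene contains these hairpins, and the nearest protein-coding genes are Nrf1 and Ube2h.

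None of the members overlaps another miRNA gene. The longest stretch any of them shares with a miRNA gene elsewhere was 17 bases, between Mir200a and Mir141, so none counts as multi-copy at 18, 20 or 22 shared bases. This bears on their counts, because reads that aligned to several places are held apart from the gene counts in the tables. Replicate 2 had 5871233 gene-assigned counts and replicate 1 had 5183641, and reads aligned to several places were 43.2% and 43.6% of all reads in replicate 2 and replicate 1. Levels are given as counts per 1000000 gene-assigned counts (CPM). A read covers a whole mature miRNA, so CPM were not divided by gene length, and reads from either arm of a hairpin stand in 1 count. Ranges in brackets are exact Clopper-Pearson 95% intervals and cover counting error only, with reads taken as independent. No molecular identifiers are mentioned, so reads copied from the same molecule could not be told apart, and the intervals may be too narrow.

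The hippocampal libraries held low levels of both families. Together the 8 members had 729 counts in replicate 2 and 434 in replicate 1, which is 0.0124% and 0.00837% of the gene-assigned counts. The miR-200 family summed to 75.3 ± 20.2 CPM (SD, n = 2) and the Mir183 cluster to 28.7 ± 8.35 CPM. Within a library the miR-200 family had 2.59 times the counts of the Mir183 cluster in replicate 2 (2.20 to 3.06) and 2.68 times in replicate 1 (2.16 to 3.34). Of the 8 members, 6 were detected, meaning at least 10 counts in both libraries. By the same rule 20.2% of all 2202 miRNA genes were detected, and 36.8% of the 1174 genes with a Mir symbol, a background added after the values were seen. Every member lay below the median of the 445 detected genes, which was 51.2 CPM. In bulk tissue, few cells with a high level and many cells with a low level cannot be told apart.

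Mir200b, a repressor of ZEB factors and the leading member on average, had 35.9 CPM in replicate 2 (31.3 to 41.1, from 211 counts) and 15.2 CPM in replicate 1 (12.1 to 19.0, from 79 counts). It was the highest member in replicate 2 but not in replicate 1, and the intervals of the libraries did not overlap. It ranked 245th in replicate 2 and 293rd in replicate 1 among all miRNA genes. Mir200c, which has the same seed, had 27.3 CPM in replicate 2 (23.2 to 31.8, 160 counts) and 22.2 CPM in replicate 1 (18.3 to 26.6, 115 counts). It led the members in replicate 1, and it was the only one with at least 100 counts in both libraries. Mir429, the remaining member with that seed, had 22.3 CPM in replicate 2 (18.7 to 26.5, 131 counts) and 18.3 CPM in replicate 1 (14.8 to 22.4, 95 counts). The intervals of the libraries overlapped for Mir200c and for Mir429.

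The 2 hairpins whose guides have the other seed of the family had far fewer counts. Mir200a had 3.07 CPM in replicate 2 (1.82 to 4.85, 18 counts) and 3.28 CPM in replicate 1 (1.91 to 5.25, 17 counts), nearly the same value in each. Mir141 had 1.02 CPM in replicate 2 (0.375 to 2.22, 6 counts) and 1.93 CPM in replicate 1 (0.925 to 3.55, 10 counts), and so missed the detection minimum in replicate 2. Both values of Mir141 were above the limit set for a count of 0, which is 3 counts, or 0.511 CPM in replicate 2 and 0.579 CPM in replicate 1. The interval of Mir141 in replicate 2 starts below that limit, and that library also had 3 counts on the opposite strand there.

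In the Mir183 cluster, Mir183, a miRNA of photoreceptors and hair cells, led with 23.5 CPM in replicate 2 (19.7 to 27.8, 138 counts) and 13.9 CPM in replicate 1 (10.9 to 17.5, 72 counts). Mir182, abundant in the retina, had 11.1 CPM in replicate 2 (8.54 to 14.1, 65 counts) and 8.87 CPM in replicate 1 (6.50 to 11.8, 46 counts). Mir183 was thus above Mir182 in both libraries. Mir96, the member linked to hearing loss, had 0 counts in either library, which allows up to 0.511 CPM in replicate 2 and 0.579 CPM in replicate 1. Of the genes with a Mir symbol, 36.8% also had no count in either library. Gm24195, the gene that shares the miR-96 seed, likewise had 0 counts in both and was looked up after the members' values were seen.

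**Figure D1:**
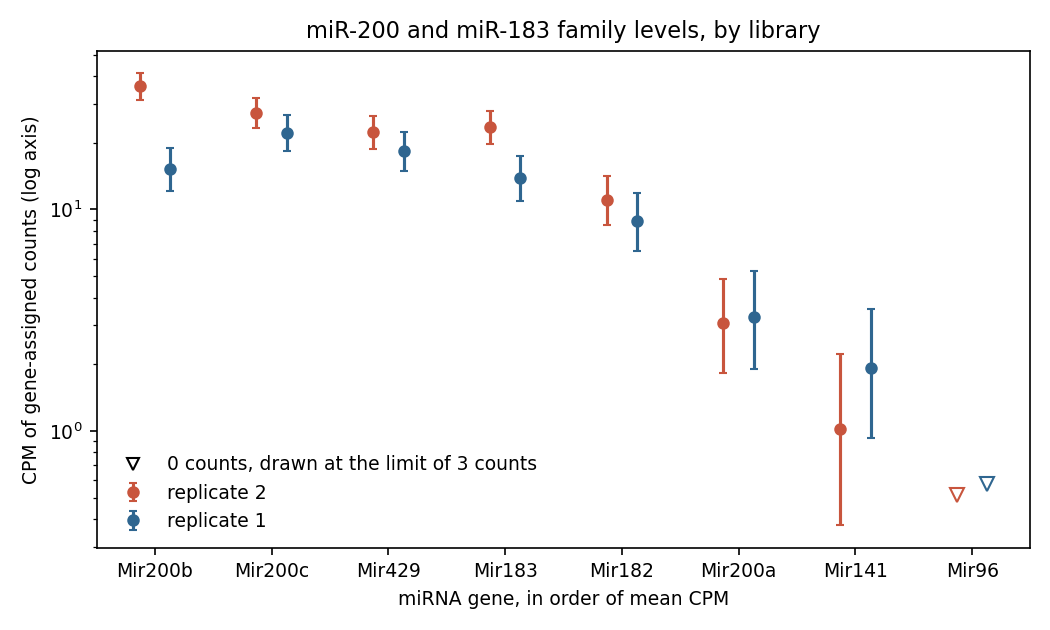
CPM of each member on a log axis, in order of mean CPM, with replicate 2 in red left of replicate 1 in blue. Bars are exact 95% intervals for counting error, and open triangles mark the limit of 3 counts for Mir96, which had 0 counts. Mir200b, Mir200c, Mir429 and Mir183 lie between 13.9 and 35.9 CPM, and Mir200a and Mir141 below 4 CPM.

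The members were ranked by mean CPM, and neighbours in that order were compared. Of the 7 pairs of neighbours in the order of mean CPM, 5 kept the same order in both libraries. Only 1 pair, Mir182 above Mir200a, also had intervals that stayed apart in both, with a gap of 6.80 ± 1.70 CPM (SD, n = 2). Mir200b and Mir200c changed places between the libraries, with a gap of 8.69 CPM in replicate 2 and -6.94 CPM in replicate 1. Mir429 and Mir183 changed places too, with gaps of -1.19 and 4.44 CPM in replicate 2 and replicate 1. Among the 4 highest members, 0 of 6 pairs had intervals apart in both libraries. Over all 28 pairs of members, 19 had intervals apart in the same direction in both libraries.

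Hairpins of the same cluster differed widely in counts. On chromosome 4 the cluster spans 1846 bases. Its first hairpin, Mir200b, took 58.6% of the cluster's counts in replicate 2 (53.3 to 63.7) and 41.4% in replicate 1 (34.3 to 48.7). Mir429, the last, took 36.4% in replicate 2 (31.4 to 41.6) and 49.7% in replicate 1 (42.4 to 57.0). Mir200a, which lies between them, took 5% in replicate 2 (2.99 to 7.79) and 8.90% in replicate 1 (5.27 to 13.9). The middle hairpin was the lowest in each library, with Mir429 at 7.28 times its counts in replicate 2 (4.43 to 12.7) and 5.59 times in replicate 1 (3.31 to 9.99). The order of the outer hairpins turned round. Mir200b had 1.61 times the counts of Mir429 in replicate 2 (1.29 to 2.02) and 0.832 times in replicate 1 (0.609 to 1.13), and these intervals do not overlap.

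The Mir200c-Mir141 cluster spans 477 bases and was carried by its first hairpin. Mir200c took 96.4% of the counts in replicate 2 (92.3 to 98.7) and 92% in replicate 1 (85.8 to 96.1). Its counts were 26.7 times those of Mir141 in replicate 2 (12.0 to 73.8) and 11.5 times in replicate 1 (6.03 to 24.6). In this pair, as on chromosome 4, the hairpin with the AACACUG seed was the lowest of its cluster in both libraries. These hairpins, Mir200a and Mir141, share 17 bases, the longest stretch of any member. Whether reads of theirs were among those aligned to several places was not tested.

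The Mir183 cluster spans 3820 bases, and Mir96 lies 116 bases from Mir183 while Mir182 lies 3453 bases further on. Mir183 had 2.12 times the counts of Mir182 in replicate 2 (1.57 to 2.90) and 1.57 times in replicate 1 (1.07 to 2.32). The count of Mir183 was 46 times the limit of 3 counts set for Mir96 in replicate 2 and 24 times in replicate 1. For Mir182 the count was 21.7 times that limit in replicate 2 and 15.3 times in replicate 1. These ratios leave out the counting error of Mir183 and Mir182, so they are not lower bounds. The hairpin of Mir96 is printed because the count of 0 refers to any uniquely aligned read on it, from either arm, with the letters of miR-96-5p in capitals. It stands on the minus strand of GRCm38.p6 at chr6:30169446-30169551.
Mir96 hairpin: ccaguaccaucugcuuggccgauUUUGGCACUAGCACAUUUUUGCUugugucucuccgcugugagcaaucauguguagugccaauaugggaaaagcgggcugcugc

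**Figure D2:**
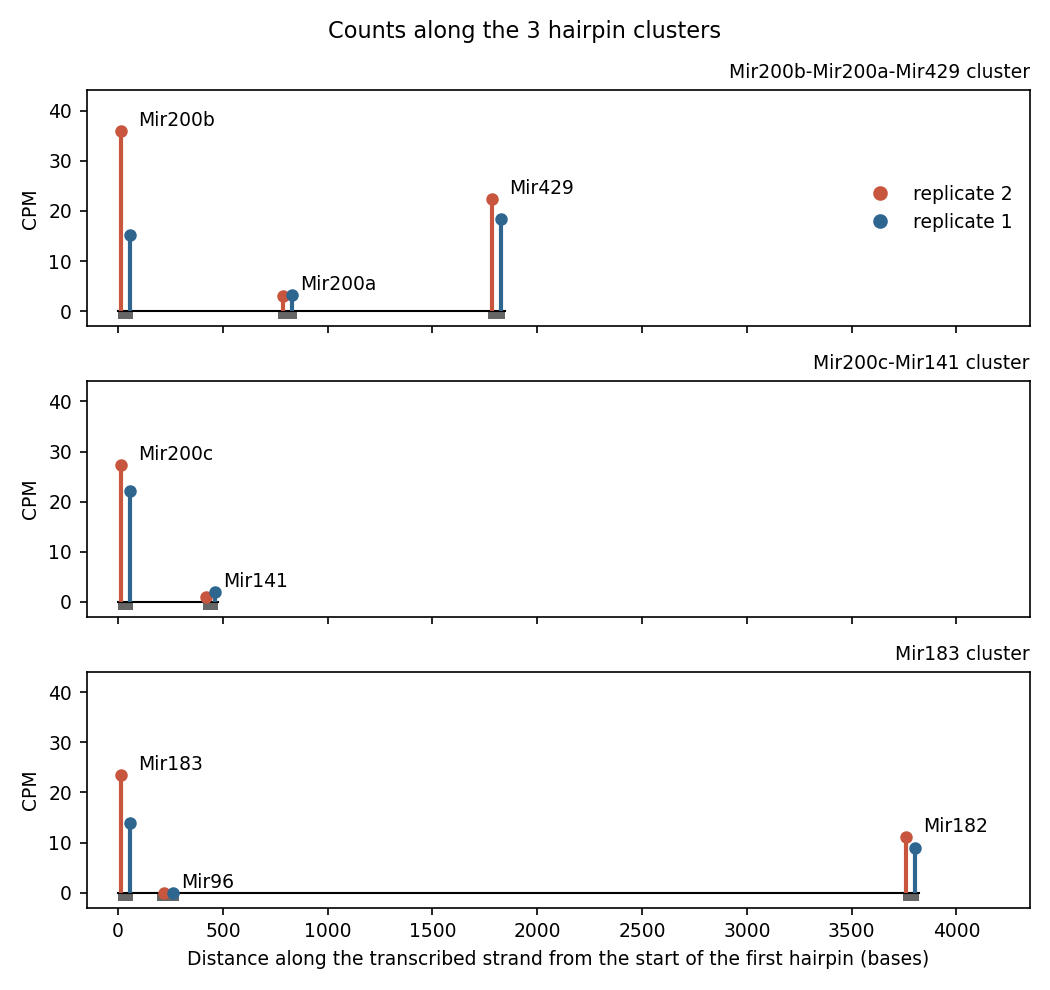
CPM of each hairpin along its cluster, with the distance in bases from the start of the first hairpin on the transcribed strand. Grey blocks are hairpins, and red and blue stems are replicate 2 and replicate 1. Mir200a, Mir141 and Mir96 stand below their neighbours, at 3.28 CPM or less in both libraries.

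Hairpin counts were also summed by the seed of the usual guide. They include reads from the other arm, which has another seed, so they are not levels of a seed itself. The AAUACUG group of Mir200b, Mir200c and Mir429 had 85.5 CPM in replicate 2 (78.2 to 93.3) and 55.8 CPM in replicate 1 (49.5 to 62.6). The AACACUG group of Mir200a and Mir141 had 4.09 CPM in replicate 2 (2.62 to 6.08) and 5.21 CPM in replicate 1 (3.43 to 7.58). The first group thus had 20.9 times the counts of the second in replicate 2 (13.9 to 33.0) and 10.7 times in replicate 1 (7.20 to 16.5). These intervals overlap between the libraries. In the Mir183 cluster, where each member has its own seed, the hairpins were at 18.7 ± 6.80 CPM for Mir183 and 9.97 ± 1.55 CPM for Mir182 (SD, n = 2). Mir96 had no counts.

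Fixed lists of miRNA genes, each named for a kind of cell, are given here beside the members. A listed gene may also be made in other cells, and bulk counts do not tell which cells its reads came from. Neuron-enriched genes summed to 41583 CPM in replicate 2 and 38370 CPM in replicate 1, with 17 of 20 detected and Mir132, a miRNA induced by neuronal activity, the highest at 17116 ± 3460 CPM (SD, n = 2). The neuronal miR-124 genes were close to 0, with 12 and 16 counts on Mir124a-1, 1 and 0 on Mir124a-2, and 9 and 2 on Mir124a-3 in replicate 2 and replicate 1. They share 32 bases with each other, and reads that align to several places are outside these counts. The Mir9 genes also share 26 bases or more with a miRNA gene elsewhere. Their mean levels were 12.6 CPM for Mir9-1, 1.32 CPM for Mir9-2 and 86.0 CPM for Mir9-3. The tissue label itself was not tested with this list.

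The list of choroid plexus and ciliated epithelium had 4 of 7 members detected and summed to 1098 CPM in replicate 2 and 1355 CPM in replicate 1. Mir204, a miRNA of the choroid plexus and retinal pigment epithelium, was its highest at 608 ± 68.8 CPM, and Mir449b had 0 counts in either library. A list of other epithelial miRNAs had 5 of 8 detected and summed to 1910 CPM in replicate 2 and 836 CPM in replicate 1. Its highest gene was Mir31 at 783 ± 562 CPM. Mir205, which like the miR-200 family represses ZEB factors, had 8 counts in replicate 2 and 3 in replicate 1. In the endocrine and pituitary list 3 of 3 matched genes were detected, namely Mir7b (2689 ± 693 CPM), Mir375 (219 ± 39.9 CPM) and Mir7-2 (152 ± 27.8 CPM). Mir7b held most of the list's mean sum of 3060 CPM, and its reads are not tied to endocrine cells here. The median over all members of a list was 198 CPM for neuron-enriched, 11.2 CPM for choroid plexus, 12.5 CPM for other epithelial and 219 CPM for endocrine genes, and 14.3 CPM for the 8 members. Over detected genes alone, the medians were 309, 302, 65.7 and 219 CPM for these lists in the same order. For the detected members the median was 19.5 CPM. The share of the members' reads that came from any of these cell types was not tested.

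**Figure D3:**
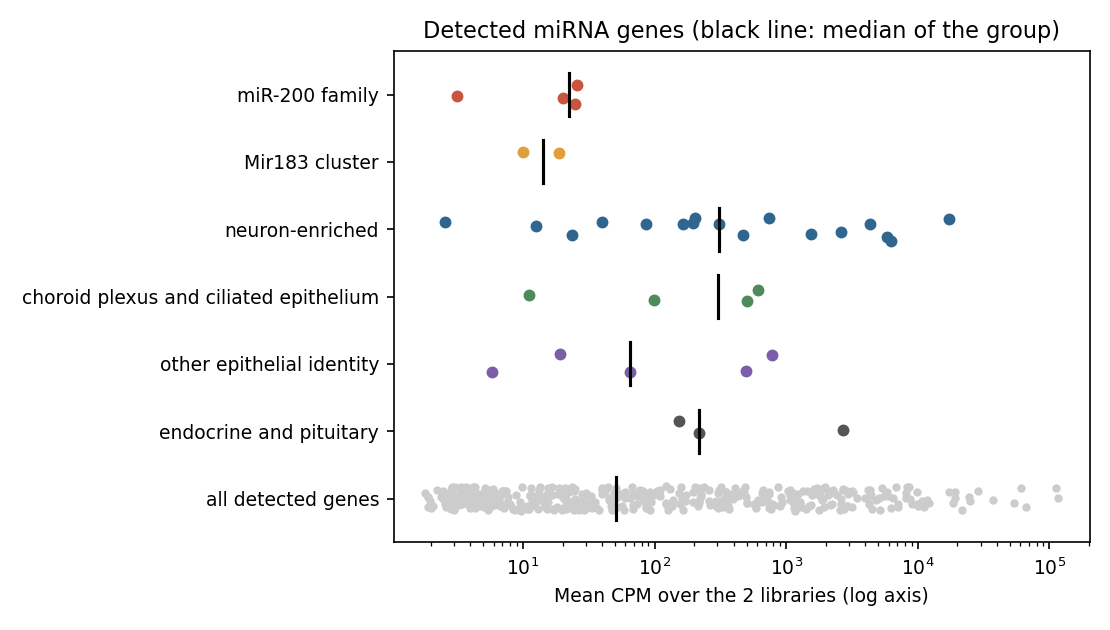
Mean CPM over both libraries, on a log axis, of the detected genes of each set, 1 point per gene, with the set's median as a black line. The 6 detected members lie between 3.17 and 25.6 CPM, to the left of the median of 51.2 CPM for all 445 detected genes.

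Between the libraries, Mir200b and Mir183 differed by more than read sampling, and the other tested members did not pass the test. For each gene the counts of the libraries were set against their shares of the total in an exact 2-sided binomial test, with Benjamini-Hochberg adjustment over the 472 genes whose counts averaged 10 or more. Mir200b was 2.36-fold higher in replicate 2 than in replicate 1 (1.81 to 3.09, adjusted p = 3.45e-11 by the exact test). Mir183 was 1.69-fold higher in replicate 2 (1.26 to 2.28, adjusted p = 0.000512 by the exact test). Of 6 tested members these 2 passed, while 59.7% of all tested genes did. In the direction of replicate 2, 39.4% of all tested genes passed, and 20.3% passed in that of replicate 1. A call also depends on the number of counts, and these shares were not tested against each other.

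Mir200c, Mir429 and Mir182 had 1.23, 1.22 and 1.25 times the CPM in replicate 2 that they had in replicate 1, with adjusted p of 0.155, 0.235 and 0.349 by the exact test. Their intervals reached 1.57, 1.60 and 1.86 at the upper end. Mir200a had 0.935 times (0.455 to 1.93, adjusted p = 0.917 by the exact test). Mir141, with 0.530 times (0.158 to 1.61), was below the minimum for the test, and Mir96 gave no ratio. The median log2 ratio of replicate 2 over replicate 1 was 0.29 over the 6 tested members and 0.16 over all tested genes. Relative to the median of all tested genes, the log2 ratio of Mir200b was higher by 1.02 and that of Mir183 by 0.56.

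The binomial test takes reads as independent and leaves out the spread between samples, so a gene that passes is not shown to differ beyond that spread. The coefficient of variation between the libraries, which edgeR calls biological, was 0.320 over the 472 genes. Since the libraries share a donor entry, this spread may be technical. A log2 ratio at least as far from 0 as that of Mir200b was seen in 42 of the 472 tested genes (8.90%), and one as far as that of Mir183 in 106 (22.5%). TMM scaling shifts the log2 ratio of CPM by -0.17 for every gene, less where the pseudocount weighs on a low level, and 141 genes were then higher in replicate 2 and 137 in replicate 1, against 186 and 96 without it. Mir200b and Mir183 still passed, with adjusted p of 1.53e-08 and 0.0106 by the exact test.

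Lists of other cells also differed between the libraries. In the other epithelial list 4 of 8 genes passed the test as higher in replicate 2 and 1 as higher in replicate 1. Its sum was 2.28-fold higher in replicate 2, led by Mir31 with 1181 CPM in replicate 2 and 385 CPM in replicate 1. In the choroid plexus list 1 of 7 passed as higher in replicate 2 and 3 as higher in replicate 1. Its sum in replicate 2 was 0.810 times that in replicate 1. Of the 20 neuron-enriched genes 4 passed as higher in replicate 2 and 9 as higher in replicate 1. Of the 3 endocrine genes 2 and 1 did so. Apart from the endocrine one, the lists also hold genes with too few counts for the test. Over all 472 tested genes, 39.4% passed as higher in replicate 2 and 20.3% as higher in replicate 1. These shares were not tested against those of the lists. The part of the cells that the lists are named for in the differences of Mir200b and Mir183 was not tested.

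**Figure D4:**
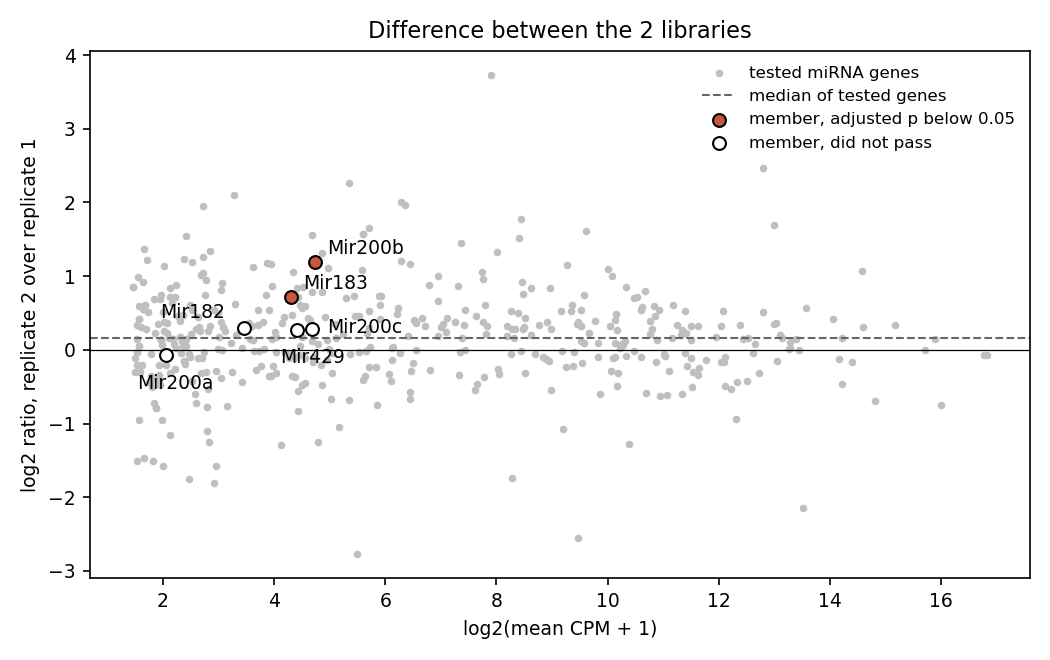
Log2 ratio of replicate 2 over replicate 1 against log2(mean CPM + 1) for the 472 tested miRNA genes in grey, with the 6 tested members labelled. Filled members had an adjusted p below 0.05. Mir200b, at 1.19, and Mir183, at 0.72, stand above the dashed median of 0.16.

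The genes nearest to each member in level were sought by the Euclidean distance of log2(CPM + 1) over the 2 libraries, which only says that the values were alike. Nearest to Mir200b were Mir3547 (40.7 CPM in replicate 2 and 15.8 CPM in replicate 1, distance 0.182) and Mir374b (distance 0.288). Mir200c was nearest to Mir218-1 (25.9 and 21.6 CPM in replicate 2 and replicate 1, distance 0.0801), which shares 22 bases with a miRNA gene elsewhere, and Gm49347 (distance 0.101). Mir429 was nearest to Mir486, a miRNA of red blood cells (23.2 and 20.4 CPM, distance 0.159), and Mir3064 (distance 0.172). Beside Mir183 stood Mir24-2 (distance 0.157) and Mir194-2, an intestinal and liver miRNA (distance 0.190), which share 30 and 22 bases with a miRNA gene elsewhere. Mir182 lay beside Mir5113 (distance 0.102) and Mir7069 (distance 0.147), and Mir200a beside Mir3474 (distance 0.0869) and Mir3088 (distance 0.0886). No member was among the 2 genes named for another, because members were left out of the search.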

How the data were processed

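For each library the authors deposited a table of raw counts of reads on miRNA genes, and its text file names mm10 and GENCODE M21. An aligner or counter is not given in the sources used. Of the 3 count columns, the one on the strand of the gene was used. The 4 rows that name no gene, left out of library sizes, were 63.3% of reads in replicate 2 and 62.7% in replicate 1, and unmapped reads among them were 15.5% and 14.1%. All 2202 identifiers matched GENCODE M21. Mature and hairpin sequences are from RefSeq (GRCm38.p6).

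Counts were scaled to CPM, with a pseudocount of 1 on the log2 scale. Genes whose counts averaged 10 or more were compared between libraries by an exact 2-sided binomial test (scipy 1.17.1) with Benjamini-Hochberg adjustment over all of them. The procedure was also run on simulated counts that held read sampling only. That simulation leaves out the spread between libraries, so it does not give the error rate of the test in these data. With 1 group there is no coefficient for edgeR's quasi-likelihood test, so edgeR 4.0.16 gave TMM scaling and the common dispersion, and DESeq2 1.42.0 gave size factors. All members are named. Of other genes, those named are the 2 nearest in level to each tested member and the highest of each list, or all its detected genes where these number 3 or fewer. Mir124a and Mir9 copies, Mir205, Mir449b and Gm24195 were named after their values were seen. The members and lists were chosen with earlier results of these data known.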

Additional observations from a re-analysis of the deposited data

How the results depend on the processing

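Mir200b and Mir183 were the members called, both higher in replicate 2, under all 9 alternatives for the difference between the libraries. Of these, 4 were TMM, DESeq2 size factors, the total without the 10 most abundant genes and the column that ignores strand. The others were 3 count minimums and 2 pseudocounts. The test does not use the pseudocount, so those 2 settings could not change a call. The 3 count minimums leave the unadjusted p of both genes as it was and alter only the adjustment. The log2 ratios ran from 1.01 to 1.21 for Mir200b (adjusted p up to 2.21e-08 by the exact test) and from 0.55 to 0.74 for Mir183 (up to 0.0127). Of all 472 tested genes, 132 passed as higher in replicate 2 and 142 as higher in replicate 1 with DESeq2 size factors. Without the 10 most abundant genes in the total these were 163 and 111. In the column that ignores strand they were 167 and 86 of 447. With minimums of 5 and 100 counts they were 197 and 98 of 552, and 160 and 82 of 291. With a minimum of 5 counts, added after seeing the data, Mir141 entered the exact test with an adjusted p of 0.329. With at least 100 counts asked for, 1 member was detected in place of 6, and 3 of the other epithelial list in place of 5. With 1, 5 or 50 counts the members detected numbered 7, 7 and 4. Without replicate 1 or without replicate 2 they numbered 6 and 7. The share of all miRNA genes detected under these settings was not worked out, so these counts have no background beside them. The neighbouring pairs of members told apart numbered 2 without replicate 1, 2 without replicate 2 and 2 in the column that ignores strand.

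Levels in CPM follow the total chosen, by construction. With reads aligned to several places added to the total, the miR-200 family had 34.6 CPM, the Mir183 cluster 13.2 CPM, the chromosome 4 cluster 22.6 CPM and the Mir200c-Mir141 cluster 12.1 CPM. The seed groups were then at 32.5 CPM for AAUACUG, 2.14 CPM for AACACUG, 8.60 CPM for AUGGCAC and 4.59 CPM for UUGGCAA. Without the 10 most abundant genes in the total, the same families and clusters had 165 CPM, 62.8 CPM, 107 CPM and 57.6 CPM. Without genes that share 20 bases with a miRNA gene elsewhere, the neuron-enriched list had 22405 CPM in place of 39977 CPM, and no member was lost at 18, 20 or 22 bases. No paired analysis was possible because the libraries form 1 group. Depth limits Mir200a, Mir141 and Mir96, with at most 18 counts in a library.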

Other observations

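On the strand opposite to the members, replicate 2 had 3 counts at Mir141, 2 at Mir182 and 0 at Mir200a, and replicate 1 had 0, 0 and 1. No other member had a count there in either library. None of these exceeded the limit of 3 counts set for a count of 0.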
